A study of Rattus norvegicus with 2 samples.

Results

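Remote solitary peaks are regions of acetylated histone H3 lysine 27 (H3K27ac) that stand alone, more than 100 kb from the next peak on either side, in the sciatic nerve of young rats. They were picked from the deposited peak list by length and distance alone. A member lay on a numbered chromosome, was longer than 500 bp and shorter than 5000 bp, and had edge-to-edge gaps to the previous and next peak that were both over 100 kb and both under 1 Mb. The first and last peak of each chromosome, 40 peaks in all, were left out. The rule found 825 members among the 32205 peaks of the 20 numbered chromosomes, 2.56% of them (exact 95% binomial interval 2.39 to 2.74%), or 2.50% of all 32996 peaks of the list. Of the 23897 peaks in the same length range, 3.45% were members.

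The tissue came from Sprague Dawley rats at postnatal day 15, with nerves pooled across animals. There are 2 libraries (H3K27ac ChIP and input), and the deposited file is 1 list of peak positions. It has no treatment, genotype or time contrast and no replicates, so the values below describe this list and no test between conditions was possible. Sciatic nerve mixes Schwann cells with fibroblasts, perineurial and vascular cells and immune cells. A peak can therefore come from any of them, and nothing in the file assigns it to one.

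H3K27ac is placed on nucleosomes by the acetyltransferases p300 and CBP and marks promoters and enhancers that are in use. Enhancers often lie in groups around the genes they act on, and an acetylated region with no acetylated neighbour may be a distant enhancer or the promoter of a lone active gene. In myelinating Schwann cells, genes such as Egr2 and Sox10, transcription factors of the myelin programme, are known to be controlled by enhancers far from their promoters. Gene positions and genome sequence in the build of the peak coordinates were not used here, so promoters and enhancers could not be told apart among the members, no member was assigned to a gene, and none of their sequences is shown.

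By the rule, remote solitary peaks were under 5000 bp long and stood in wide empty stretches. Their median length was 1317 bp (exact 95% interval of the median 1240 to 1392 bp), with quartiles at 903 and 1992 bp and a range of 625 to 4862 bp. Together they covered 1.30 Mb of the 72.5 Mb covered by all peaks on the numbered chromosomes. The stretches between their flanking peaks, counted once where they overlapped, added up to 450.4 Mb, 16.5% of the span of those chromosomes. Empty is used here for sequence without another called peak, and why none was called there cannot be read from the list. The median member was the only peak in a stretch of 534.3 kb (quartiles 361.9 and 818.7 kb).

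Short lengths were more frequent among members than among the 23072 other peaks of the same length range. Members of up to 1000 bp numbered 264 (32.0%), against 23.0% of the other peaks. A further 355 members (43.0%) were over 1000 and up to 2000 bp long, against 37.4%. At the long end, 73 members (8.85%) were over 3000 bp, against 18.0%. The median of the other peaks was 1685 bp (interval 1667 to 1701 bp). Chromosome by chromosome, the median member was shorter than the median of the other peaks on 19 of 20 chromosomes. Chromosome 19 was the exception, with a median of 1953 bp over 23 members and 1565.5 bp over its other peaks. The length limits belong to the rule and all lengths come from the same list, so these values are given as a description, without a test. The intervals cover counting only and treat peaks as independent.

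**Figure D1:**
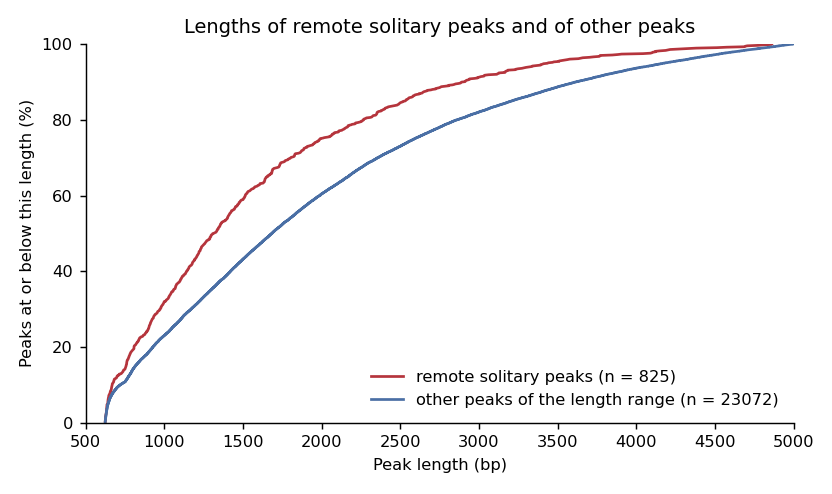
Cumulative share of peaks (%, y axis) by peak length (bp, x axis) for the 825 remote solitary peaks and the 23072 other peaks over 500 and under 5000 bp on the numbered chromosomes. The curve of the remote solitary peaks lies above that of the others over nearly the whole range, with medians of 1317 and 1685 bp.

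The longest members came close to the upper limit of the rule. The longest, of 4862 bp, lay on chromosome 2 from 141240502 to 141245363, with gaps of 389.8 kb before and 125.0 kb after it. A member of 4860 bp on chromosome 4 (237690354 to 237695213) had wide gaps on both sides, 346.3 and 458.4 kb, and only 6 other peaks within 1 Mb. The next lengths were 4807 bp on chromosome 8 (50925808 to 50930614), 4772 bp on chromosome 6 (113858535 to 113863306) and 4705 bp on chromosome 2 (58533854 to 58538558). These 3 had smaller gaps of 129.8, 103.3 and 122.3 kb and between 21 and 26 other peaks within 1 Mb. The longest members were thus found both in sparse and in moderately filled surroundings.

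The shortest members were 4 peaks of 625 bp, the next length in use above 500 bp. They lay on chromosome 1 (248330825 to 248331449), chromosome 19 (11643498 to 11644122), chromosome 6 (21449705 to 21450329) and chromosome 8 (94201420 to 94202044). The first 3 had smaller gaps of 111.8, 107.8 and 103.9 kb, and the last had gaps of 226.2 and 227.1 kb. After these came 10 members of 627 bp. One of them was on chromosome 1 from 12728141 to 12728767 and had only 2 other peaks within 1 Mb.

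At the limits of the rule other than the minimum length, little separated the peaks just inside from those just outside. At the minimum length there was a break, as no peak with these gaps was between 500 and 625 bp long. The shortest peak kept out by the upper length limit was one of 5056 bp on chromosome 8 (88201283 to 88206338), 194 bp longer than the longest member. The smallest gap of a member was 100026 bp, on chromosome 3 (53937704 to 53939490), and a peak of 771 bp on chromosome 4 (145681436 to 145682206) with a gap of exactly 100000 bp stayed out. The widest gap of a member was 999725 bp, on chromosome 4 (140672631 to 140674647), while a peak of 630 bp on chromosome 3 (112707745 to 112708374) was left out by a gap of 1000869 bp.

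Most members lay not far above the minimum distance on their nearer side. The smaller gap had a median of 153.8 kb (interval 148.2 to 160.3 kb) with quartiles at 119.7 and 232.8 kb. Both gaps were over 150 kb in 430 members (52.1%), over 200 kb in 273 (33.1%), over 300 kb in 135 (16.4%) and over 500 kb in 37 (4.48%). On the farther side the median gap was 360.4 kb, and 259 members (31.4%) had more than 500 kb there. The larger gap was a median of 1.81 times the smaller one. It was over 2 times the smaller in 348 members (42.2%) and over 5 times in 55 (6.67%). The wider side was the right one, towards higher coordinates, in 425 members (51.5%, interval 48.0 to 55.0%). Across the 825 members Spearman's rho of the left and right gaps was 0.096. It is given as a description, because neighbouring members share a gap and the rule cut the range of both gaps.

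**Figure D2:**
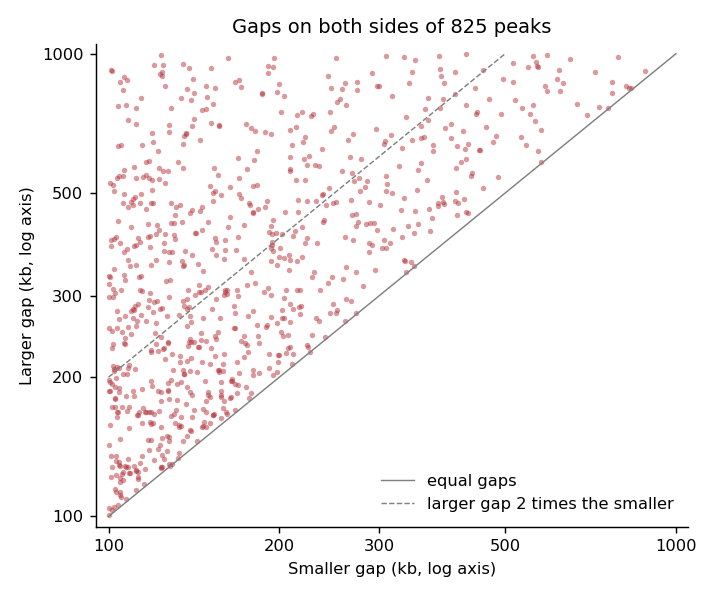
Larger gap (kb, log y axis) against smaller gap (kb, log x axis) for each of the 825 remote solitary peaks, 1 point per peak, with lines for equal gaps and for a larger gap 2 times the smaller. Points crowd near the 100 kb limit of the smaller gap, and only 37 members lie beyond 500 kb on both sides.

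The most remote member by its smaller gap lay on chromosome 20, from 56855813 to 56857155. It was 1343 bp long and had gaps of 881.5 kb and 919.3 kb. Both of its flanking peaks belonged to groups of 3 peaks, so here a lone mark stood between 2 small clusters. A group is used here for peaks linked by gaps of at most 12.5 kb.

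Of the 10 most remote members, 6 had another member as a neighbouring peak, against 37.3% of all members. The 10 are few and were picked by a gap that the rule used. A member of 2621 bp on chromosome 16 (78298090 to 78300710) had gaps of 844.7 and 833.1 kb, and its left neighbour was a member too. On chromosome 1 (35098161 to 35099667) a member of 1507 bp had gaps of 827.7 and 844.1 kb, with a member to its right. On chromosome 2 (171915277 to 171916715) a member of 1439 bp had gaps of 817.2 and 849.9 kb, also with a member to its right. The member on chromosome 19 from 3826995 to 3830462 was the longest of these 10, at 3468 bp, with gaps of 985.0 and 789.7 kb.

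Chromosome 4 held 3 of the 10 most remote members. Of these, 2 were next to each other, one of 627 bp (160672192 to 160672818) and one of 1448 bp (161443760 to 161445207), and the 770.9 kb between them was the smaller gap of both. The third was 1788 bp long (135689510 to 135691297) with gaps of 759.9 and 763.4 kb. The last 2 of the 10 were on chromosome 2 (279545483 to 279546385, 903 bp, gaps of 732.0 and 766.9 kb) and chromosome 5 (73151190 to 73152231, 1042 bp, gaps of 719.1 and 912.3 kb). In length these 10 ran from 627 to 3468 bp, within the range of the other members.

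Among the members, distance and length did not move together. With the members divided at the quartiles of length, the shortest 208 (625 to 903 bp) had a median smaller gap of 157.7 kb and the longest 206 (2008 to 4862 bp) one of 151.0 kb. The 2 classes between them had medians of 152.7 and 153.9 kb. The median number of other peaks within 1 Mb was 21, 19, 19 and 18 from the shortest to the longest class. Spearman's rho of length and smaller gap over the 825 members was -0.0063, as a description over peaks that share 1 library and whose range was cut by the rule.

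Over the peaks of the numbered chromosomes, median length was lower in each more isolated class up to the distance at which the rule begins. Among peaks over 500 and under 5000 bp, the median length was 1859 bp where the smaller gap was at most 1 kb, 1703 bp at 5 to 12.5 kb, 1512 bp at 25 to 50 kb and 1428.5 bp at 50 to 100 kb. Beyond 100 kb it was 1343 bp up to 200 kb, 1269 bp from 200 to 300 kb and 1345 bp from 300 kb to 1 Mb, and the intervals of these last 3 medians overlapped. Peaks of 500 bp or less made up 13.9% of the most crowded class, 24.6% at 100 to 200 kb, 28.5% at 200 to 300 kb and 25.4% beyond. Peaks of 5000 bp or more made up 17.0%, 1.30%, 0.826% and 0.585% of the same classes. How the peak caller joined nearby signal into 1 peak is not known from the file, and its part in these lengths was not tested.

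**Figure D3:**
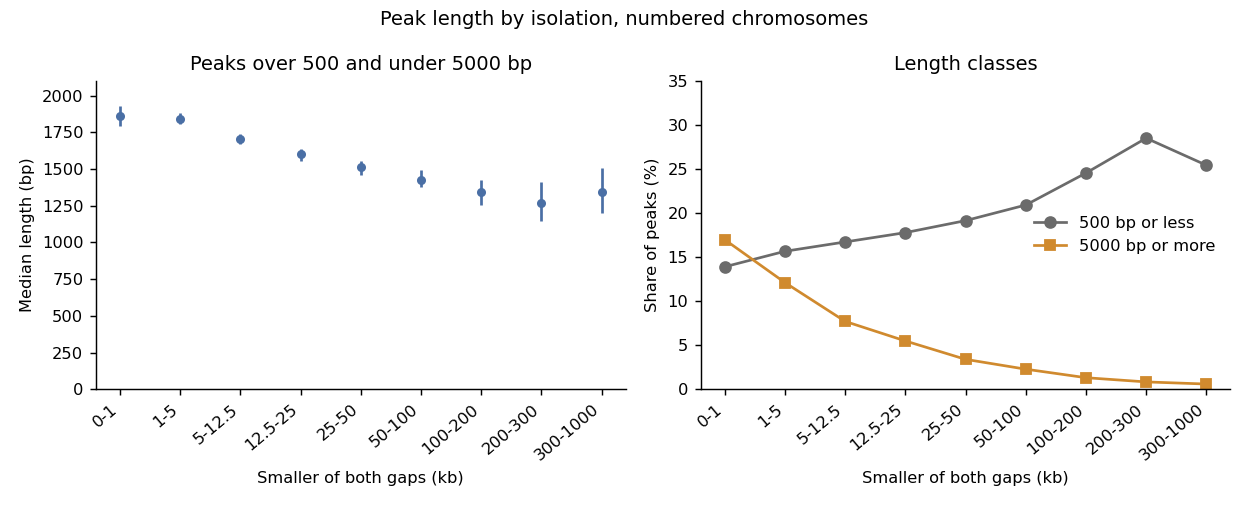
Left, median length (bp, y axis) of peaks over 500 and under 5000 bp by the smaller of both gaps (kb, x axis), with exact 95% intervals of the median as bars. Right, share (%, y axis) of peaks of 500 bp or less and of 5000 bp or more in the same gap classes; the medians go from 1859 bp down to 1343 bp at 100 to 200 kb and stay close to that beyond, and long peaks go down to under 1%.

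The length limits set aside 306 of the 1131 peaks that had the same gaps. These were 294 peaks of 500 bp, 26.0% of the 1131 against 17.2% of all peaks on the numbered chromosomes, and 12 peaks of 5000 bp or more, 1.06% against 8.64%. The 12 long ones ran up to 9444 bp, on chromosome 8 from 103412542 to 103421985. The 294 peaks of 500 bp had a median smaller gap of 153.1 kb and a median of 20 other peaks within 1 Mb, against 153.8 kb and 19 for the members. Both sets were picked with the same gap limits, so the likeness of these values is in part set by the rule. The list holds no peak height, so whether the peaks of 500 bp are weaker was not analysed here.

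The peaks that bounded the empty stretches were themselves mostly single and short. The members had 1650 flanking positions, held by 1588 different peaks, since some peaks bounded 2 members. Members themselves held 348 of the positions (21.1%), and the rule makes these peaks single and over 500 and under 5000 bp long. The median flanking peak, counted by position, was 1147 bp long, against 1515 bp for all peaks on the numbered chromosomes. The 1280 flanking peaks that were not members, each counted once, had a median of 1095 bp. A peak of 500 bp or less held 387 of the positions (23.5%), against 17.2% of all peaks, and a peak of 5000 bp or more held 45 (2.73%), against 8.64%. The nearer flanking peak had a median of 1151 bp and the farther one 1136 bp, so the flanks did not differ by side beyond the intervals of their medians (1075 to 1246 and 1047 to 1236 bp).

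Few members stood beside a dense cluster. Of the flanking positions, 1263 (76.5%) held a peak with no further peak within 12.5 kb, and 387 (23.5%) held a peak with one beyond it. For comparison, 43.5% of all peaks on the numbered chromosomes had a peak within that distance on their right side. Groups of 4 or more peaks bounded 58 positions (3.52%), although such groups held 29.6% of all peaks. On both sides, single peaks bounded 494 members (59.9%) and groups of 2 or more bounded 56 (6.79%). Only one end peak of a group can bound a stretch, so groups are counted less often by position than by peak. The single peaks include the members at 348 of the positions, which stand alone by the rule. Of the members, 7 had a group of 8 or more peaks at a flank. The largest, of 16 peaks, ended 130.9 kb before a member of 939 bp on chromosome 18 (79046627 to 79047565), an example chosen after its values were seen.

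Members formed strings. A neighbouring peak was itself a member for 308 members (37.3%, interval 34.0 to 40.7%), and 40 members (4.85%) had members on both sides. Members held 21.1% of the flanking positions and were 2.56% of all peaks on the numbered chromosomes. Adjoining members made up 102 pairs, 25 runs of 3, 6 runs of 4 and 1 run of 5. The other 517 members had no member next to them. A member's neighbour already has a gap of over 100 kb on the shared side, so it meets part of the rule by that alone. The share of members among all peaks beside such a gap was not taken. Whether members adjoin more often than other peaks beside such gaps was therefore not tested.

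The run of 5 lay on chromosome 1 and spanned 2.22 Mb, from 10513363 to 12728767. Its first peak was 2391 bp long and followed the previous peak of the list by 143.5 kb. After 350.6 kb came a peak of 634 bp, after 559.5 kb one of 1777 bp, and after 990.8 kb one of 646 bp. The last was the peak of 627 bp named above among the shortest members, 308.4 kb further on and 543.2 kb from the next peak. From the first to the last of these 5, the number of other peaks within 1 Mb was 15, 7, 3, 3 and 2, so the run led into sequence with fewer peaks. The runs of 4 lay on chromosomes 1, 4 (2 runs), 6, 8 and 17, with spans from 0.569 Mb on chromosome 17 (13574720 to 14143814) to 1.75 Mb on chromosome 4 (160672192 to 162422049). The latter begins with the 2 adjoining members listed among the 10 most remote.

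The number of peaks around the members varied widely. The rule keeps at least 100 kb on each side of a member free of peaks, so counts within 1 Mb are in part set by it. A member had a median of 19 other peaks within 1 Mb of its centre (quartiles 10 and 30), against 43 (28 and 59) for the other peaks of the length range. At most 5 others were found around 92 members (11.2%), against 1.88% of the other peaks. The fewest was 2, around 17 members. The most was 83, around a member of 1828 bp on chromosome 5 (141630732 to 141632559) with gaps of 415.7 and 122.7 kb, chosen after its values were seen. A gap of over 100 kb on both sides was thus compatible with a peak-rich region a little further out.

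Peak density around the members was also taken by distance. Gaps of up to 1 Mb belong to the rule, so the first 2 of the distances below lie partly inside the empty stretches. Between 0.1 and 0.5 Mb from the members there were 11.6 peaks per Mb, between 0.5 and 1 Mb 12.8, between 1 and 2 Mb 13.3, between 2 and 3 Mb 12.3 and between 3 and 4 Mb 11.8. The mean of the numbered chromosomes, long empty stretches included, was 11.8 peaks per Mb. Around the other peaks of the length range the density was 23.8, 19.4, 16.9, 15.8 and 14.7 peaks per Mb over the same distances. That average is weighted towards dense regions, since each peak of a cluster counts once. Distances over 1 Mb are outside those the rule used, but the weighting of the other peaks towards dense regions applies there too. A lower density around members than around the other peaks is therefore in part set by the comparison. At 1 to 2 Mb the density around members was below that around the other peaks of the same chromosome on 16 of 20 chromosomes, and above it on chromosomes 9, 12, 15 and 17. Around the 294 peaks of 500 bp with the same gaps it was 12.6 peaks per Mb at 1 to 2 Mb.

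**Figure D4:**
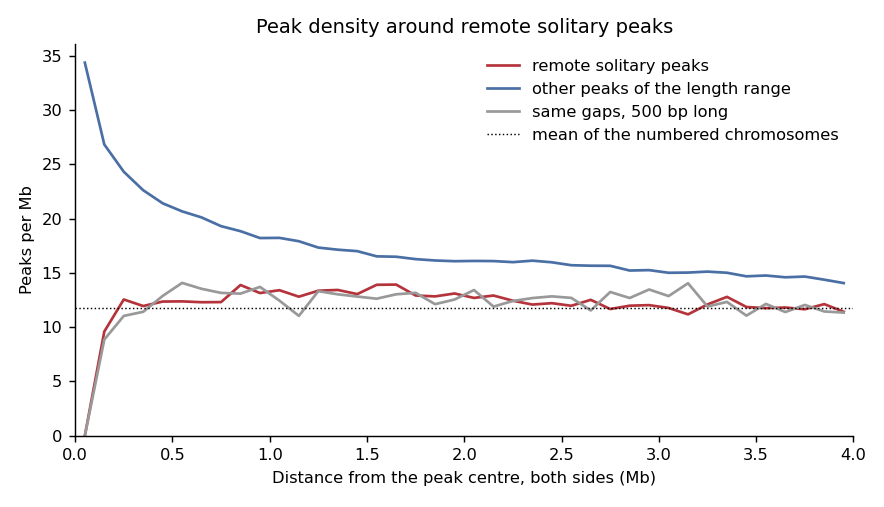
Peak density (peaks per Mb, y axis) by distance from the peak centre (Mb, x axis, both sides, steps of 100 kb) around remote solitary peaks, other peaks of the length range and peaks of 500 bp with the same gaps; the dotted line is the mean of the numbered chromosomes, 11.8 peaks per Mb. The density around remote solitary peaks is 0 in the first step, as the rule demands, and then stays near the dotted line, below that around the other peaks.

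Members were present on each numbered chromosome, from 9 on chromosome 12 to 93 on chromosome 1, with a median of 36.5. As a share of a chromosome's peaks they ranged from 0.827% on chromosome 12 (interval 0.379 to 1.56%) and 1.15% on chromosome 10 (0.768 to 1.66%) to 3.76% on chromosome 2 (3.03 to 4.62%) and 5.02% on chromosome 17 (3.82 to 6.45%). Chromosomes 10, 12 and 20, with 21.7, 20.2 and 17.4 peaks per Mb the densest of the 20, had the 3 lowest shares. Over the 20 chromosomes, Spearman's rho of peak density and share of members was -0.714, a description in which both quantities contain the number of peaks. The rule asks for over 100 kb free of peaks on both sides, so lower shares on denser chromosomes are in part set by it.

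Chromosome 17 had the most members for its length. It carried 57 members in 92.0 Mb, or 62.0 per 100 Mb (exact 95% Poisson interval 46.9 to 80.3). The other chromosomes ran from 16.7 on chromosome 12 (7.64 to 31.7) to 35.9 on chromosome 18 (24.4 to 51.0). Its peak density, 12.3 per Mb, lay between the extremes. It held 6.91% of the members and 3.53% of the peaks of the numbered chromosomes. Its members were spread along it, in 17 of its 19 windows of 5 Mb, and 28 of the 57 had a member as neighbour. Their median length was 1142 bp and their median smaller gap 137.4 kb. With stretches of over 5 Mb without a peak left out of every span, chromosome 17 still had 62.0 members per 100 Mb and the next highest was chromosome 19 with 38.3. Chromosome 17 was singled out after the values were seen, and no test of its difference from the others was made.

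**Figure D5:**
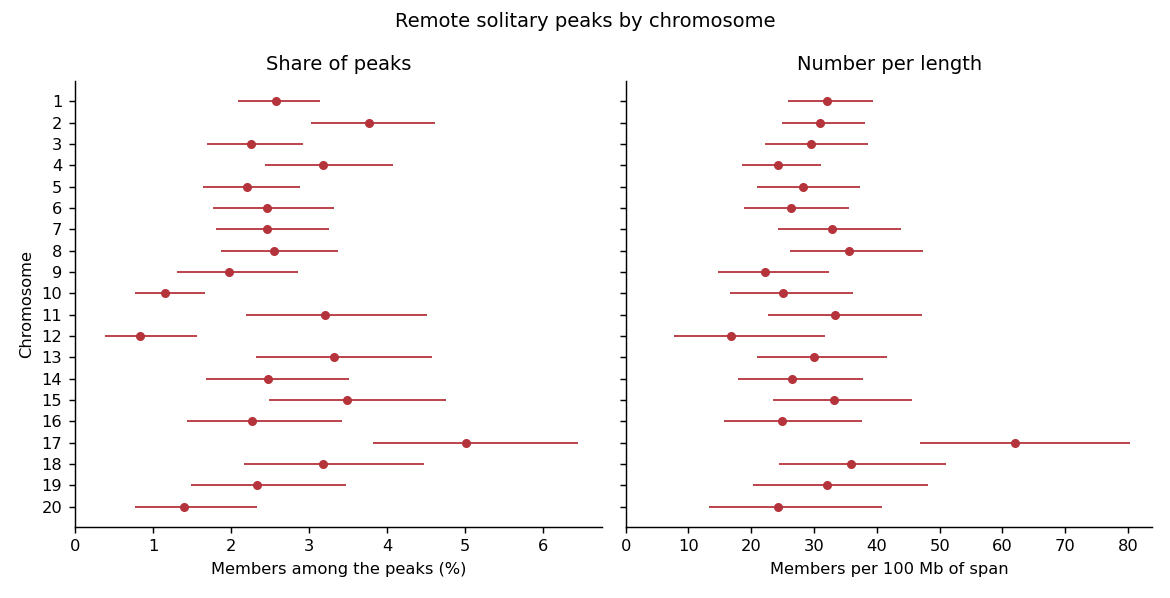
Remote solitary peaks by numbered chromosome (y axis), left as a share of the chromosome's peaks (%, with exact 95% binomial intervals) and right per 100 Mb of span from first to last peak (with exact 95% Poisson intervals). Chromosome 17 is highest on both scales, at 5.02% and 62.0 per 100 Mb, and chromosome 12 lowest, at 0.827% and 16.7.

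On a finer scale, the members were found in 368 of 556 windows of 5 Mb. Windows with 5 or more members numbered 30 and held 159 members; they were chosen by that number. The window with the most members, 7, was on chromosome 17 from 20 to 25 Mb, where 74 peaks were called. Windows with 6 differed widely in their other peaks. On chromosome 4 from 35 to 40 Mb the 6 members were among only 12 peaks, and on chromosome 13 from 85 to 90 Mb they were among 77. Windows with many members thus included both nearly empty ones and ones with many other peaks.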

How the data were processed

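The authors deposited 1 list of peaks (chromosome, start, end) from 1 H3K27ac library with its input, and no other measurement; CASAVA 1.8.2, Bowtie and HOMER are named, without roles, in the submitters' processing notes. The genome build, the caller's settings and the use of the input are not known from the labels or the file. The list has no counts or scores, so the depth is unknown. The gene table at hand is of GRCr8, and on 13 of the 20 numbered chromosomes the last peak lay past its last gene, by up to 63.8 Mb, so it was not used for positions. Gene and sequence analyses were not run.

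Peaks were sorted by start, and gaps were measured edge to edge, including to peaks of 500 bp. No peaks overlapped. Printed starts are the file's start plus 1. Computations used scipy 1.17.1, numpy 2.4.6 and pandas 2.3.3 under Python 3.11.15, with figures from matplotlib 3.10.9. Shares have exact (Clopper-Pearson) 95% intervals, medians intervals from order statistics, and densities Poisson intervals; all cover counting only. Other peaks within 1 Mb were counted between centres. Density by distance was clipped at the first and last peak of a chromosome. The choice of members, the peak counts by distance and the counts within 1 Mb were tested on simulated data, and the other steps were not. Members, lists and settings were chosen with earlier results of these data known. Regions named by rule were the 10 members with the largest smaller gap, the 5 longest, the 5 shortest, the longest run, the chromosomes at both ends and the peaks nearest each limit. The distance, window and flank summaries and the runs of 4 were added to these.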

Additional observations from a re-analysis of the deposited data

How the results depend on the processing

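Limits of the rule were changed one at a time, in 7 settings for 6 results. Of the 42 values, 26 stayed within the interval of the reported value (for numbers of peaks, within 1.5 times) and 16 did not. With a minimum gap of 50 kb there were 2198 members, with a median smaller gap of 83.0 kb, 26 other peaks within 1 Mb and 51.3% beside another member. With 200 kb these were 273, 297.3 kb, 12 and 33.7%. Both sets of gaps follow from the limit. Without a maximum gap the number was 1080, the median smaller gap 171.3 kb, the peaks within 1 Mb 15 and the share beside another member 46.5%. With peaks of 500 bp kept the median length was 1011 bp and that share 50.1%. With gaps measured among peaks over 500 bp only, the flanking peaks had a median of 1477 bp, the peaks within 1 Mb were 22 and that share was 52.4%; flanks of 500 bp or less are absent there by construction. The share of members beside another member thus ranged from 33.7 to 52.4%, and the median length, apart from the setting with 500 bp peaks, from 1308 to 1391.5 bp. No paired analysis was possible because there is 1 ChIP library. For the same reason no replicate could be left out. The effect of depth on weak neighbours, which decide whether a peak is solitary, cannot be read from a list without counts.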

Other observations

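X was outside the rule. Of its 791 peaks, 40 (5.06%) met the same limits of length and gaps, with a median length of 1482 bp and a median smaller gap of 163.5 kb. Of these 40, 14 had another such peak as neighbour.

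A further 255 peaks of the numbered chromosomes had the members' length range and more than 100 kb on both sides, but at least 1 Mb on one side or both. They made up 23.6% of the 1080 peaks with no upper limit on the gap.

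The deposited rows follow no genomic order, and what orders them is unknown. With the rows cut into 10 blocks of equal size, members made up 2.81% of the peaks of the length range in the first block (58 members), 4.09% in the fourth, 3.09% in the sixth and 4.06% in the last (100 members).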
